A study of Drosophila melanogaster with 34 samples.

Results

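COR-018 and JUT-008 are inbred strains of *D. melanogaster* that the study classes as copper sensitive, and the comparison described here is the difference between their responses to copper. It rests on 12 of the 34 RNA-seq libraries of the series, 3 for each of COR-018 copper, COR-018 control, JUT-008 copper and JUT-008 control, chosen by the strain and treatment given for each sample. Every library was made from whole bodies of 20 mated females kept for 24 h on sucrose solution that held 20 mM CuSO4 (copper) or none (control). The females were young adults, both treatments held the same food dye and sucrose, and each strain is a single inbred line from a natural European population. The other 22 libraries are of AKA-018, also sensitive, and of MUN-008, MUN-020 and GIM-012, all tolerant, and they enter only where a fit of all 34 libraries is named. The study's methods state that dead flies of COR-018 and JUT-008 were taken out before RNA was extracted, so the copper libraries hold survivors. They also state that the replicates were biological and that those with the best RNA were kept for sequencing.

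Copper that enters fly cells activates the transcription factor MTF-1, which binds metal response elements and induces the metallothioneins, small cysteine-rich proteins that hold the metal. Females turn a large share of their resources into eggs. In the ovary, somatic follicle cells surround each oocyte and secrete the eggshell late in egg formation: first the vitelline membrane proteins, then the chorion proteins. Follicle cells amplify a pair of chorion gene clusters, 1 on the X chromosome and 1 on 3L, so that these short-lived stages can make very large amounts of chorion mRNA.

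Between 33909229 and 42567920 reads were counted in the COR-018 libraries and between 26185356 and 31130011 in the JUT-008 libraries, so depth and strain cannot be told apart. On the first principal component, with 51.4% of the variance, the libraries were separated by strain, and on the second, with 29.2%, by treatment. Transcripts of 14 male accessory gland genes summed to over 1 CPM in 7 of the 12 libraries, namely in 2 COR-018 copper libraries, 1 COR-018 control library (replicate 4, 144 CPM), 2 JUT-008 copper libraries and 2 JUT-008 control libraries, with a highest value of 165 CPM. CPM is the read count scaled to the depth of its library, here after TMM normalization. None of the 11 accessory gland, 5 testis and 4 Y-linked genes in the fit was called in the test of the difference, where 0.504% of all genes were. The summed accessory gland level ran from 0.0946 to 144 CPM within the COR-018 controls and from 0.0965 to 165 CPM within the JUT-008 controls. With such spread a difference could hardly have been called. The part of this male RNA in the results was not tested. A fit without those 7 libraries left 1 library each of COR-018 copper, JUT-008 copper and JUT-008 control. All its spread came from the COR-018 controls, so its counts of called genes, given below for each strain, cannot decide this.

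Of the 11708 genes tested, 59 (0.504%) changed differently under copper in COR-018 than in JUT-008 (strain-by-treatment interaction, edgeR's quasi-likelihood test, adjusted *p* below 0.05). The difference, the log2 change under copper in COR-018 minus that in JUT-008, was negative for 50 genes (0.427% of those tested) and positive for 9 (0.0769%). Its median over all genes was 0.00, and 1260 genes had an unadjusted *p* below 0.05. Of the 59 genes, the copper change was called in COR-018 alone for 27 and in JUT-008 alone for 8. It was called in both with the same sign for 20 and in both with opposite signs for 4. A gene not called in a strain may still have changed there. Of the 50 with a negative difference, 43 fell in COR-018 and 10 rose in JUT-008.

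In COR-018, 1537 genes fell (13.1%) and 1033 rose (8.82%) under copper, and in JUT-008 690 fell (5.89%) and 257 rose (2.20%). The total of 2570 in COR-018 was 1489, 1248 or 1384 without copper replicate 1, 3 or 4, 1411 or 1660 without control replicate 1 or 4, and 500 without the 7 libraries with male RNA. The total of 947 in JUT-008 was 545 without copper replicate 2, 488, 484 or 1721 without control replicate 1, 2 or 3, and 146 without those 7 libraries. Of the 1867 genes called in COR-018 and not in JUT-008 the interaction was called for 27. Of the calls, 698 were made in both strains with the same sign, which is 27.2% of the COR-018 list and 73.7% of the JUT-008 list. For these shared genes the median absolute log2 change was 0.98 for COR-018 and 0.91 for JUT-008, and it was the larger in COR-018 for 429. Across all genes tested, which are not independent replicates, the 2 changes had a Spearman's correlation of 0.54 and a Pearson's correlation of 0.51.

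The count of 59 depends on the method and on single libraries. DESeq2 called 329 genes, all 59 among them, and a single fit of all 34 libraries called 175, 55 of them among the 59. Without COR-018 copper replicate 1, 3 or 4 the count was 16, 19 or 17, without COR-018 control replicate 1 it was 38, without JUT-008 copper replicate 1 or 3 it was 23 or 25, and without JUT-008 control replicate 1 or 2 it was 24 or 31. The fit without the 7 libraries with male RNA had groups of 1 library, so its count is not compared here. The genes called in each of the 12 fits that leave out 1 library numbered 16, namely *Cp38*, *Cp36*, *Cp15*, *Cp18*, *Femcoat*, *CG11381*, *CG13083*, *CG32642*, *CG4009*, *CG31926*, *CG6508*, *CG34291*, *CG16704*, *CG16713*, *CG3106* and *CG11842*.

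**Figure D1:**
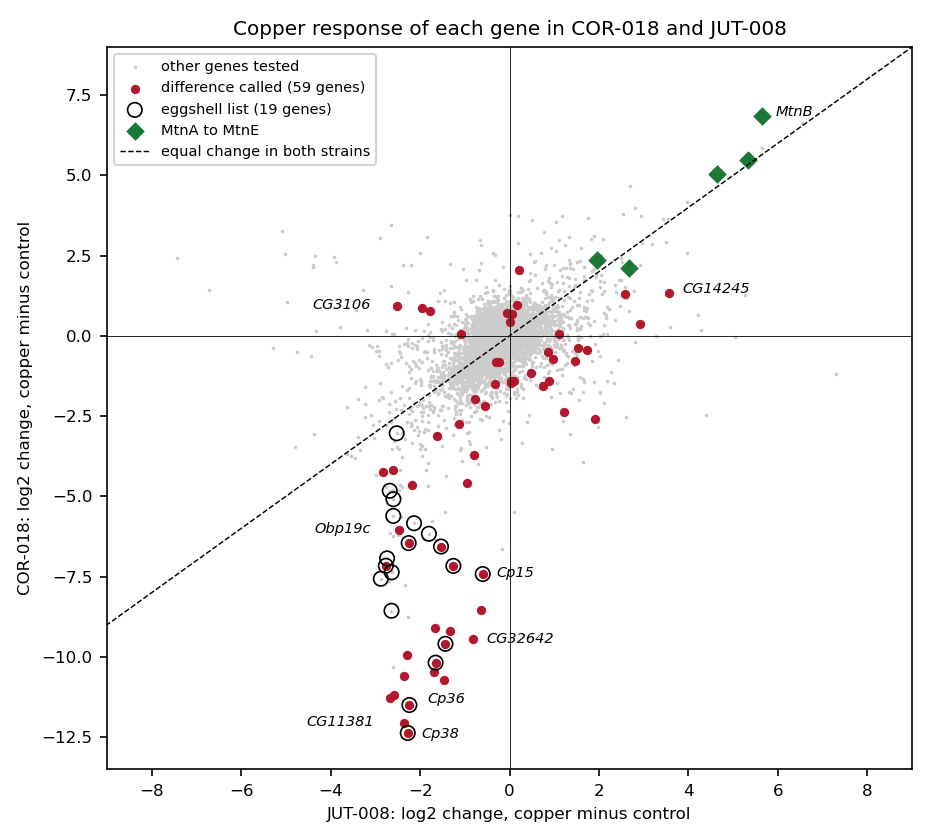
Log2 change under copper in COR-018 (vertical axis) against that in JUT-008 (horizontal axis), 1 point for each of 11708 genes tested. The 59 genes whose change differed are red, eggshell genes are circled and *MtnA* to *MtnE* are green diamonds. The eggshell genes hang below the dashed line of equal change, down to -12.37 in COR-018, while the metallothioneins lie close to it.

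The eggshell list held the most called genes of the 42 lists examined. In COR-018 flies given copper their transcripts were almost gone. Summed over the 19 genes for vitelline membrane and chorion proteins, the COR-018 copper libraries held 22.8, 15.4 and 32.6 CPM, against 3119, 2077 and 6776 CPM in COR-018 control libraries. The JUT-008 copper libraries held 1135, 1077 and 1380 CPM, against 5523, 4564 and 4375 CPM in JUT-008 control libraries. Thus both strains had less eggshell mRNA with copper, and no copper library reached a control library of its strain. In whole bodies, fewer follicle cells at these stages and less mRNA per cell cannot be told apart.

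All 19 genes fell in COR-018, with log2 changes of -12.37 to -3.04, and 14 of the 19 fell in JUT-008, where the fitted changes ran from -2.88 to -0.60. The difference was negative for all 19, with a median of -4.69 against 0.00 over all genes, and it was called for 9 of them (0.427% of all genes had a called negative difference). For each of the 19 genes all COR-018 copper libraries lay below all COR-018 control libraries and below all JUT-008 copper libraries. For 18 of the 19 the JUT-008 copper libraries also lay below the JUT-008 control libraries. The share of all genes that separate in this way was not counted, so these counts have no background to be read against. Without copper, of the 19 genes, 1 (*Fcp3C*) differed between the COR-018 and JUT-008 controls, where 52.5% of all genes did, whereas all 19 differed between the copper libraries, where 50.3% of all genes did. COR-018 control replicate 4, one of the libraries with male RNA, had the highest value of the 3 COR-018 controls for 16 of the 19. The count of 9 was 5 without COR-018 copper replicate 1 or without replicate 4. It was 14 without COR-018 control replicate 2 and 11 without COR-018 control replicate 4.

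**Figure D2:**
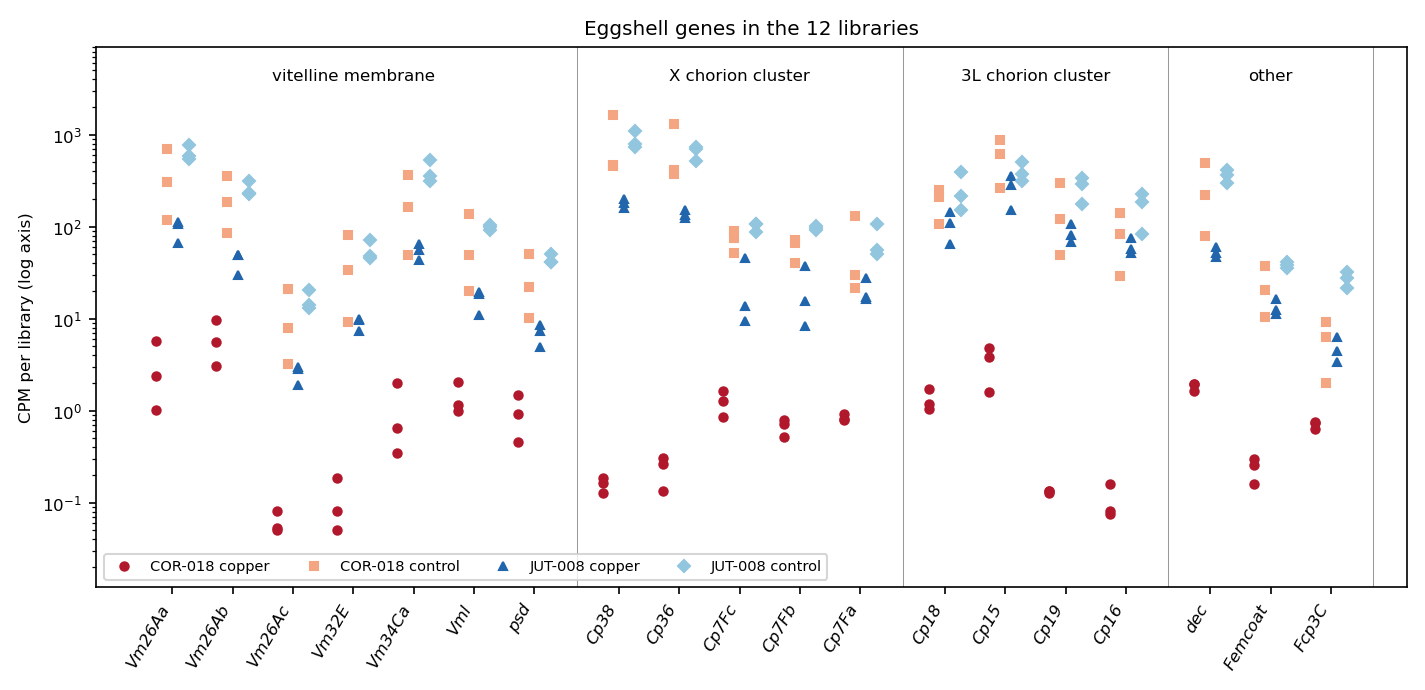
Expression of the 19 eggshell genes in CPM (log axis), 1 point per library, with COR-018 copper, COR-018 control, JUT-008 copper and JUT-008 control side by side for each gene. The COR-018 copper libraries lie below the other 9 for every gene, at 0.162, 0.186 and 0.127 CPM for *Cp38*.

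The chorion cluster on the X chromosome (X:8470888-8483311, dm6) comprises *Cp7Fa*, *Cp7Fb*, *Cp7Fc*, *Cp36* and *Cp38*. *Cp36* and *Cp38* encode major chorion proteins made early in choriogenesis. *Cp38* had 0.162, 0.186 and 0.127 CPM in COR-018 copper libraries, against 466, 454 and 1656 CPM in COR-018 control libraries. In JUT-008 it had 202, 159.8 and 181 CPM with copper, against 799.6, 1103 and 729.7 CPM in controls. The COR-018 copper value rests on 18 reads in 3 libraries, against 91250 reads in the 3 controls, so that the level was 5130-fold lower with copper (95% interval for counting error alone 3250 to 8660). In JUT-008 it was 4.8-fold lower. The log2 difference was -10.10 ± 0.88 (estimate ± SE, adjusted *p* = 0.00121, edgeR).

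*Cp36* gave the same picture. It had 0.135, 0.266 and 0.305 CPM in COR-018 copper libraries, against 414, 379 and 1302 CPM in COR-018 control libraries. JUT-008 had 153, 135 and 124 CPM with copper, against 694, 735 and 515 CPM in controls. No copper library overlapped the controls of its strain, and the log2 difference was -9.26 ± 0.79 (adjusted *p* = 0.00121, edgeR). The remaining genes of the cluster fell by less in COR-018. *Cp7Fb*, with 0.512, 0.799 and 0.712 CPM in COR-018 copper libraries against 67.4, 40.5 and 71.4 CPM in COR-018 control libraries, differed by -4.20 (adjusted *p* = 0.0384, edgeR), in 3 of the 12 fits that leave out a library. *Cp7Fa* (-4.36, adjusted *p* = 0.098) and *Cp7Fc* (-3.70, adjusted *p* = 0.0708) were not called in the edgeR test of the difference.

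The 4 genes of the chorion cluster on 3L (3L:8726791-8732599, dm6), *Cp18*, *Cp15*, *Cp19* and *Cp16*, encode chorion proteins made late in choriogenesis. All 4 fell in COR-018, where 13.1% of all genes did, with log2 changes of -10.18 to -7.17. None was called in JUT-008, where the fitted changes were -1.65 to -0.60. *Cp15* had 4.8, 1.6 and 3.84 CPM in COR-018 copper libraries, against 876, 265 and 618 CPM in COR-018 control libraries. In JUT-008 it had 281, 153 and 356 CPM with copper, against 512, 374 and 313 CPM in controls. The JUT-008 groups overlap, while the COR-018 groups lie far apart, and the log2 difference was -6.82 ± 0.72 (adjusted *p* = 0.00352, edgeR).

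*Cp19* had 0.135, 0.133 and 0.127 CPM in COR-018 copper libraries, against 48.8, 122.9 and 301 CPM in COR-018 control libraries, and 68.3, 80.9 and 108 CPM in JUT-008 copper libraries, against 335, 178 and 295 CPM in JUT-008 control libraries. The difference was -8.53 ± 1.10 for *Cp19* and -8.16 ± 1.10 for *Cp16*, each called in 10 of the 12 fits that leave out a library. *Cp18* differed by -5.91 ± 0.68 and was called in all 12. In JUT-008 the fall was called for 4 of the 5 X genes and for 0 of the 4 genes on 3L, where 5.89% of all genes fell. The adjusted *p* there (edgeR) was 0.0794 for *Cp19*, 0.0926 for *Cp18*, 0.107 for *Cp16* and 0.416 for *Cp15*. For *Cp7Fa*, the uncalled X gene, it was 0.0973. The clusters were not tested against each other.

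The vitelline membrane genes fell as well. These 7 genes (*Vm26Aa*, *Vm26Ab*, *Vm26Ac*, *Vm32E*, *Vm34Ca*, *Vml* and *psd*) encode the inner layer of the eggshell, which is laid down before the chorion. All 7 fell in both strains, with log2 changes of -8.57 to -4.83 in COR-018 and -2.88 to -2.6 in JUT-008. The difference ran from -5.93 for *Vm32E* to -2.15 for *psd*, and none of the 7 passed the edgeR test of the difference (adjusted *p* = 0.0556 to 0.327). *Vm26Aa* had 2.40, 1.01 and 5.77 CPM in COR-018 copper libraries, against 306, 119 and 708 CPM in COR-018 control libraries, and 65.8, 112 and 108 CPM in JUT-008 copper libraries, against 773, 546 and 585 CPM in JUT-008 control libraries. The groups of each strain lie apart, and the COR-018 controls spread widely. The difference for *Vm26Aa* was -4.20 (95% interval -6.19 to -2.2).

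Of the other eggshell genes, *dec*, which encodes a family of eggshell proteins cut from 1 precursor gene, had 1.97, 1.65 and 1.93 CPM in COR-018 copper libraries, against 224, 80.3 and 495 CPM in COR-018 control libraries. It had 46.4, 60.03 and 52.2 CPM in JUT-008 copper libraries, against 368, 298 and 413 CPM in JUT-008 control libraries. The difference was -4.40 ± 0.76 (adjusted *p* = 0.0386, edgeR), called in 2 of the 12 fits that leave out a library. *Femcoat*, an eggshell gene, differed by -5.03 ± 0.62 and was called in all 12. *Fcp3C*, a gene of the follicle cells, fell in both strains, with a difference of -0.51 (95% interval -1.9 to 0.88).

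The fall below -4 was not limited to the eggshell list. Of the 21 called genes with a difference under -4, the list held 9, and the other 12 had the same near loss in COR-018 copper libraries, except *Lcp65Ag2*, which was low in all libraries. None of the 21 differed between the strains in control libraries. *yellow-g2*, a member of the yellow family that is needed in the eggshell, had 0.0270, 0.0533 and 0.0254 CPM in COR-018 copper libraries, against 64.6, 50.6 and 156 CPM in COR-018 control libraries. JUT-008 had 27.8, 17.7 and 5.32 CPM with copper, against 128, 95.2 and 82.9 CPM in controls. The difference was -8.59 ± 1.33 (adjusted *p* = 0.0263, edgeR), called in 6 of the 12 fits that leave out a library.

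*CG32642* had the lowest adjusted *p* of all genes (0.000941, edgeR). It had 0.0809, 0 and 0 CPM in COR-018 copper libraries, against 22.9, 17.7 and 23.03 CPM in COR-018 control libraries. JUT-008 had 13.9, 9.05 and 19.5 CPM with copper, against 25.2, 22.7 and 26.7 CPM in controls. With 3 reads in the COR-018 copper libraries against 2361 in the controls, the level was 797-fold lower (95% counting interval 272 to 3870), and 1.75-fold lower in JUT-008. This gene thus nearly vanished from COR-018, while its change in JUT-008 did not pass the test.

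*CG11381* had 1 read in the COR-018 copper libraries against 5737 in the controls, a ratio of 5810 with a 95% counting interval of 1040 to 229000, and it was 5.11-fold lower in JUT-008. *CG15571* had 0 reads in the COR-018 copper libraries against 559 in the controls, so that it was at least 189-fold lower, taking 3 reads over the group as the limit that a count of 0 allows, and it was 3.2-fold lower in JUT-008. *CG15570* (X:4218170-4223331, dm6) lies beside *CG15571* (X:4216873-4217394), and *Femcoat* is on the same arm at X:4241887-4242826. *CG13083* and *CG13084*, which are likewise neighbours (2L:19487490-19488691 and 2L:19484930-19486532), had 3 and 8 reads in the COR-018 copper libraries against 5520 and 4322 in the controls. *CG31926* and *CG6508*, both annotated by sequence as pepsin-type aspartic peptidases, had 2 reads against 1375 and 1 read against 521. *CG13114* and *CG4009* had 4 reads against 10434 and 5 reads against 7921. Fitted log2 values of genes with so few reads depend on the prior count, and the reads are the firmer measure.

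The eggshell genes had their lowest copper changes in COR-018 among the 6 strains. In a fit of all 34 libraries the median log2 change of the 19 genes under copper was -7.14 in COR-018, -2.27 in JUT-008 and -1.84 in AKA-018, the third sensitive strain, while for the tolerant strains it was -1.63 in MUN-008, -0.77 for MUN-020 and -0.44 for GIM-012. Their summed level in the COR-018 copper libraries, 14.56 to 31.55 CPM in this fit, lay below that of every library of the other 5 strains, of which the lowest, of GIM-012 copper, had 723 CPM. The difference from AKA-018 was called, with the lower change in COR-018, for 16 of the 19 genes (2.33% of all genes had a called negative difference), and the difference from JUT-008 for 14 in the same fit (1.11%). Between JUT-008 and AKA-018, 0 of the 19 differed (0.336%), with a median difference of -0.61. These 3 comparisons share libraries, and the tolerant strains were not tested against COR-018.

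**Figure D3:**
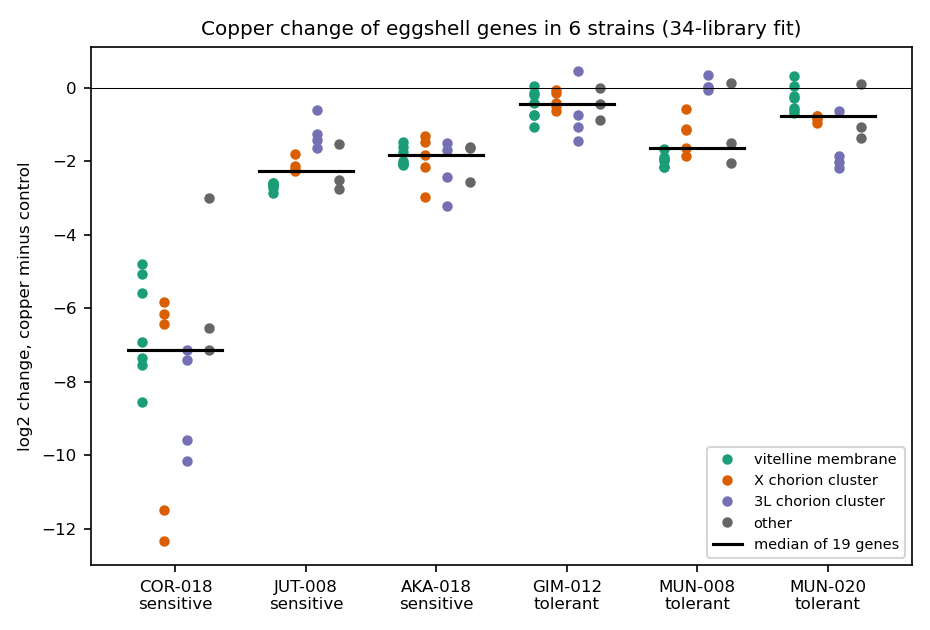
Log2 change under copper (vertical axis) of the 19 eggshell genes in each of the 6 strains, from 1 fit of all 34 libraries. Points are genes, coloured by role, and bars are medians. COR-018 stands apart at a median of -7.14, while the other 5 medians lie between -2.27 and -0.44.

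Genes that supply and fill the egg were not called different. *Yp1*, *Yp2* and *Yp3* encode yolk proteins made in the fat body and in follicle cells. *Yp1* fell in both strains, with 3552, 2924 and 3962 CPM in COR-018 copper libraries against 9468, 5401 and 9666 CPM in COR-018 control libraries, and 1861, 1849 and 2082 CPM in JUT-008 copper libraries against 4541, 3648 and 2999 CPM in JUT-008 control libraries. Its difference was -0.28 (95% interval -0.96 to 0.40). *yl*, the yolk receptor of the oocyte, fell by 0.30 in COR-018 and by 0.34 in JUT-008 on the log2 scale. Of the 14 oocyte and germline genes 0 were called (edgeR and DESeq2 alike, 2 with an unadjusted *p* below 0.05), and their median difference was -0.13. In COR-018, 2 fell and 1 rose, close to the shares of all genes (13.1% and 8.82%), and 0 were called in JUT-008 (5.89% and 2.20%). *Yp3* was not called in either strain. Of the 6 yolk and lipoprotein transport genes 0 were called, against 0.504% of all genes. A count of 0 thus says little about lists of 6 and 14 genes. The fitted difference was below 0 for 5 of the 6 and for 10 of the 14. Among the 6 it was lowest for *Yp2*, at -0.7 (95% interval -1.498 to 0.0986), and among the 14 for *orb*, at -0.465. Both were smaller in size than the median of -4.69 over the 19 eggshell genes.

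*fit*, a female-biased fat body gene whose product acts in protein satiety, had 3.86, 3.75 and 3.38 CPM in COR-018 copper libraries, against 94.0, 46.9 and 125 CPM in COR-018 control libraries. JUT-008 had 16.6, 11.1 and 12.7 CPM with copper, against 36.2, 25.5 and 16.5 CPM in controls. The COR-018 copper libraries were the lowest of all, although the COR-018 controls were the highest. The difference was -3.64 ± 0.52 (adjusted *p* = 0.0164, edgeR), called in 7 of the 12 fits that leave out a library. *Obp19c*, of the odorant-binding protein family, fell in both strains and more in COR-018, with a difference of -3.57 ± 0.49. It had 0.485, 0.426 and 0.331 CPM in COR-018 copper libraries, against 28.7, 18.5 and 35.0 CPM in COR-018 control libraries.

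Digestive peptidases fell with copper in both strains. Of the 30 *Jonah* and trypsin family peptidases, serine peptidases of the midgut, 22 fell and 1 rose in COR-018, against a background of 13.1% and 8.82%, and in JUT-008 16 fell and 0 rose, against 5.89% and 2.20%. The median difference was -1.01, with 26 of the 30 below 0, but only *Jon99Fi* was called in edgeR, against 8 genes in DESeq2. It had 0.647, 0.533 and 0.864 CPM in COR-018 copper libraries, against 21.7, 9.46 and 20.4 CPM in COR-018 control libraries, and 11.4, 12.0 and 7.10 CPM in JUT-008 copper libraries, against 48.8, 44.2 and 45.4 CPM in JUT-008 control libraries. Its difference of -2.46 ± 0.45 (adjusted *p* = 0.0483, edgeR) was called in 1 of the 12 fits that leave out a library. Since reads shared by near-identical genes were discarded, values of a single *Jonah* gene are uncertain.

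*CG10477*, a serine peptidase outside the list, fell by 1.47 on the log2 scale in COR-018 and had a change of 0.04 in JUT-008, which was not called. *CG8560*, a metallocarboxypeptidase, fell in both strains and by more in COR-018. *CG8560* had 15.8, 13.9 and 16.3 CPM in COR-018 copper libraries, against 151, 110.4 and 142 CPM in COR-018 control libraries, and 43.2, 41.0 and 36.7 CPM in JUT-008 copper libraries, against 148, 128 and 97.8 CPM in JUT-008 control libraries. The controls of the strains overlap, and the difference was -1.5 ± 0.22 (adjusted *p* = 0.0208, edgeR). *CG31091*, a lipase gene that the study listed as changing in opposite directions in tolerant and sensitive strains, fell in COR-018 with 2.0, 2.08 and 2.26 CPM in copper libraries, against 15.8, 24.7 and 42.2 CPM in control libraries. In JUT-008 it had 11.7, 9.32 and 9.41 CPM with copper, against 16.6, 25.5 and 11.1 CPM in controls, and the difference was -2.90 ± 0.51 (adjusted *p* = 0.042, edgeR). Of the 6 genes of that kind 1 was called, and as they were chosen in part on these libraries their direction is not independent evidence. Maltases and amylases, enzymes of sugar digestion, had a median difference of -1.18 over 13 genes, and 0 were called, the lowest adjusted *p* being 0.184 (edgeR), though 9 had an unadjusted *p* below 0.05 and DESeq2 called 1.

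The called genes *CG10514*, *CG11892* and *CG31300* lie close together on 3R (3R:25278427-25279846, 3R:25281548-25283237 and 3R:25283620-25285224, dm6) and belong to the ecdysteroid kinase-like family. Each had a negative difference, as did 50 of the 59 called genes. They were picked from the called genes, and other genes of the stretch or family are not described here. *CG11892* had 15.7, 13.3 and 14.4 CPM in COR-018 copper libraries, against 314, 187 and 291 CPM in COR-018 control libraries, and 7.41, 6.92 and 5.61 CPM in JUT-008 copper libraries, against 43.8, 43.6 and 33.5 CPM in JUT-008 control libraries. It thus fell in both strains, and the COR-018 libraries were the higher in both treatments. *CG31300* instead rose in JUT-008, with 28.0, 25.7 and 28.0 CPM in copper libraries against 7.47, 11.3 and 5.76 CPM in control libraries, and was not called in COR-018, with 4.50, 4.31 and 4.63 CPM in copper libraries against 7.66, 5.87 and 4.72 CPM in control libraries. The differences were -2.18 ± 0.32 for *CG31300*, -1.61 ± 0.27 for *CG10514* and -1.59 ± 0.28 for *CG11892*, which were called in 6, 3 and 1 of the 12 fits that leave out a library.

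In 4 genes the responses were called in both strains with opposite signs. *CG34291* fell to 19.8, 25.2 and 21.3 CPM in COR-018 copper libraries, against 65.2, 44.0 and 66.0 CPM in COR-018 control libraries, and rose to 2.14, 2.26 and 1.87 CPM in JUT-008 copper libraries, against 1.25, 1.22 and 0.966 CPM in JUT-008 control libraries. The control levels of the strains were far apart, by 5.67 on the log2 scale, and the difference in response was -2.27 ± 0.26 (adjusted *p* = 0.00404, edgeR). *CG16713*, a Kunitz-type protease inhibitor gene, fell to 29.7, 36.5 and 37.1 CPM in COR-018 copper libraries, against 53.7, 46.0 and 70.7 CPM in COR-018 control libraries, and rose to 32.5, 26.3 and 30.1 CPM in JUT-008 copper libraries, against 16.3, 14.8 and 14.0 CPM in JUT-008 control libraries. With copper the strains overlapped, and the difference was -1.70 ± 0.22. Its neighbour *CG16704*, also of the Kunitz type (2L:3692123-3692587 and 2L:3695032-3695411, dm6), rose in JUT-008 by 1.52 and differed by -1.91 ± 0.21.

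*CG3106*, which encodes a predicted acyltransferase, went the other way. It had 4.02, 2.58 and 3.18 CPM in COR-018 copper libraries, against 1.80, 1.47 and 1.88 CPM in COR-018 control libraries, and 2.27, 2.6 and 1.08 CPM in JUT-008 copper libraries, against 10.5, 12.7 and 10.7 CPM in JUT-008 control libraries. It rose in COR-018 and fell in JUT-008, and the difference of 3.44 ± 0.42 (adjusted *p* = 0.00607, edgeR) was the largest of the 9 positive ones. The fourth gene has no symbol in the annotation used. It fell by 0.51 in COR-018, rose by 0.87 in JUT-008 and was called in 6 of the 12 fits that leave out a library.

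**Figure D4:**
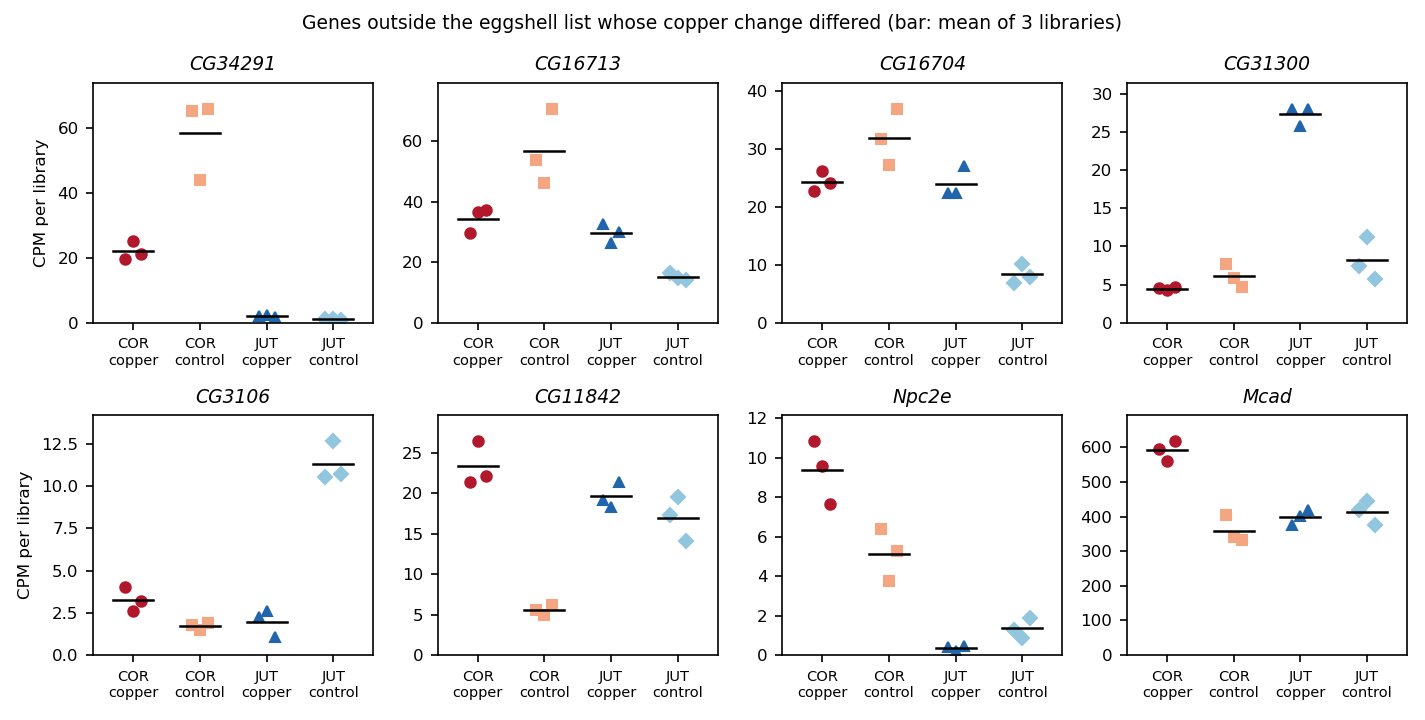
Expression in CPM of 8 genes outside the eggshell list whose copper change differed, chosen after their values were seen, with 1 point per library and a bar at the mean of 3 libraries. *CG11842* is high in COR-018 copper libraries (21.3, 26.4 and 22.1 CPM) and low in COR-018 controls (5.62, 4.90 and 6.23 CPM), while the JUT-008 groups overlap.

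Among the positive differences, *CG11842*, a serine peptidase gene, had 21.3, 26.4 and 22.1 CPM in COR-018 copper libraries, against 5.62, 4.90 and 6.23 CPM in COR-018 control libraries. JUT-008 had 19.1, 18.3 and 21.4 CPM in copper libraries against 17.3, 19.6 and 14.0 CPM in control libraries, and its change was not called. The JUT-008 controls lay above the COR-018 controls and below the COR-018 copper libraries. The difference was 1.85 ± 0.20 (adjusted *p* = 0.00352, edgeR), called in all 12 fits that leave out a library. *Mcad*, the medium-chain acyl-CoA dehydrogenase of mitochondrial β-oxidation, had 595, 559 and 619 CPM in COR-018 copper libraries, against 406, 341 and 332 CPM in COR-018 control libraries. In JUT-008 it had 376, 403 and 419.7 CPM with copper, against 420.3, 445 and 377 CPM in controls, and the difference was 0.77 ± 0.13 (adjusted *p* = 0.0376, edgeR). *CROT*, a carnitine acyltransferase that hands on acyl groups from peroxisomes, had 97.6, 101 and 96.7 CPM in COR-018 copper libraries, against 62.8, 58.6 and 64.1 CPM in COR-018 control libraries. It differed by 0.61 ± 0.10, with JUT-008 groups that overlap. *Mcad* was called in 2 and *CROT* in 3 of the 12 fits that leave out a library.

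*Npc2e*, of the Niemann-Pick type C2 family of sterol-binding proteins, had 10.8, 9.59 and 7.63 CPM in COR-018 copper libraries, against 6.37, 3.76 and 5.26 CPM in COR-018 control libraries, and 0.383, 0.206 and 0.444 CPM in JUT-008 copper libraries, against 1.29, 0.887 and 1.90 CPM in JUT-008 control libraries. The difference was 2.83 ± 0.48 (adjusted *p* = 0.0384, edgeR). *Dgat2*, a diacylglycerol acyltransferase of fat storage, differed by 2.55 ± 0.46, and *FarO*, a fatty acyl-CoA reductase of the oenocytes, by 1.15 ± 0.21. *Npc2e*, *Dgat2* and *FarO* fell in JUT-008 and were not called in COR-018, and each was called in 2 of the 12 fits that leave out a library. The other 2 positive differences were those of *mre11*, a nuclease of DNA double-strand break repair, at 0.40 ± 0.07, and of a gene with no symbol in the annotation, at 0.78 ± 0.13.

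The remaining called genes had smaller negative differences, from -3.64 to -0.52. Of the 38 called genes with a difference above -4, 28 also differed between the COR-018 and JUT-008 controls, against 52.5% of all genes. *CG14245* rose in both strains, with 671, 559 and 715 CPM in COR-018 copper libraries against 204, 287 and 274 CPM in COR-018 control libraries, and 112, 73.6 and 153 CPM in JUT-008 copper libraries against 12.8, 9.46 and 6.53 CPM in JUT-008 control libraries. The rise was the larger in JUT-008, from a much lower control level, with a difference of -2.22 ± 0.40 (adjusted *p* = 0.0479, edgeR). *Lcp65Ag2*, a larval cuticle protein gene, was the only 1 of 42 cuticle genes called in edgeR, where 0.504% of all genes were. It had at most 0.108 CPM in COR-018 copper libraries and at most 4.63 CPM in any library. It was called in 0 of the 12 fits that leave out a library. DESeq2, which called 329 genes in all, called 6 of the 42 cuticle genes. Their median difference was -0.81, with 32 of the 42 below 0. *Ent2*, a nucleoside transporter, fell in both strains, by 0.83 in COR-018 and by 0.31 in JUT-008, and differed by -0.52 ± 0.09.

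The metallothioneins, the best known targets of copper, were induced in both strains, and no difference was called. *MtnB* had 530.0, 444 and 487 CPM in COR-018 copper libraries, against 6.34, 1.40 and 5.14 CPM in COR-018 control libraries. In JUT-008 it had 204, 133 and 279 CPM with copper, against 6.30, 3.18 and 2.99 CPM in controls. *MtnB* rose by 6.84 in COR-018 and by 5.64 in JUT-008 on the log2 scale, and the difference was 1.21 ± 0.64 (95% interval -0.22 to 2.63, adjusted *p* = 0.558, edgeR). *MtnA* had 6346, 6431 and 6306 CPM in COR-018 copper libraries, against 1155, 955 and 1590.0 CPM in COR-018 control libraries, and 1980.0, 1747 and 2619 CPM in JUT-008 copper libraries, against 644, 605 and 393 CPM in JUT-008 control libraries. The COR-018 levels were higher in both treatments, and the difference was 0.42 (95% interval -0.28 to 1.11).

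For *MtnC*, *MtnD* and *MtnE* the difference was -0.55 (95% interval -1.35 to 0.25), 0.14 (-0.81 to 1.08) and 0.39 (-0.54 to 1.33). *MtnF* was not called in either strain. The intervals reach well away from 0, so that the strains are not shown to be alike. In DESeq2 also, 0 of the 6 metallothioneins were called. Of the 10 genes for copper uptake, export and chaperones 0 were called in either strain, with a median difference of -0.06. Among all genes 13.1% fell and 8.82% rose in COR-018, and 5.89% fell and 2.20% rose in JUT-008. A count of 0 says little about 10 genes. Their fitted change was below 0 for all 10 in COR-018 and for 7 in JUT-008. The 4 genes listed as markers of copper cells, the acid-secreting cells of the midgut, were *lab*, *Vha100-4*, *dve* and *Ptx1*. All 4 fell in both strains, where 13.1% (COR-018) and 5.89% (JUT-008) of all genes did. *lab* had at most 2.26 CPM in any library, and how specific the 4 are to these cells was not tested. None of the 4 was called in the test of the difference. Of these, *Vha100-4*, a subunit of the proton pump V-ATPase, fell by 1.96 in COR-018 and by 3.38 in JUT-008, with a difference of 1.43 (95% interval 0.30 to 2.55, adjusted *p* = 0.327, edgeR).

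More genes were called in COR-018 than in JUT-008 across the whole transcriptome (13.1% against 5.89% lower, 8.82% against 2.20% higher), and the counts of the following lists are to be read against those shares. Of 17 muscle structural genes, 16 fell in COR-018 and 3 in JUT-008, and the median difference was -0.40, with no gene called. Of 21 genes of DNA replication and the cell cycle, 9 rose in COR-018 and 0 in JUT-008, yet all 21 had a positive fitted change in both strains (median 0.29 in COR-018 and 0.18 in JUT-008) and the difference was called for none. Of 35 glutathione S-transferases, 10 rose in COR-018 and 2 in JUT-008, with a median difference of 0.01. Of 74 genes of oxidative phosphorylation, 17 fell in COR-018 and 11 in JUT-008, with a median difference of 0.02. The test of the difference was passed by 0 genes of these lists and by 0.504% of all genes (edgeR), so that 0 says little about lists of this size. Its unadjusted *p* was below 0.05 for 4 of 17, 1 of 21, 9 of 35 and 1 of 74, against 1260 of all 11708 genes. DESeq2 called 2 of 17, 0 of 21, 2 of 35 and 0 of 74.

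**Figure D5:**
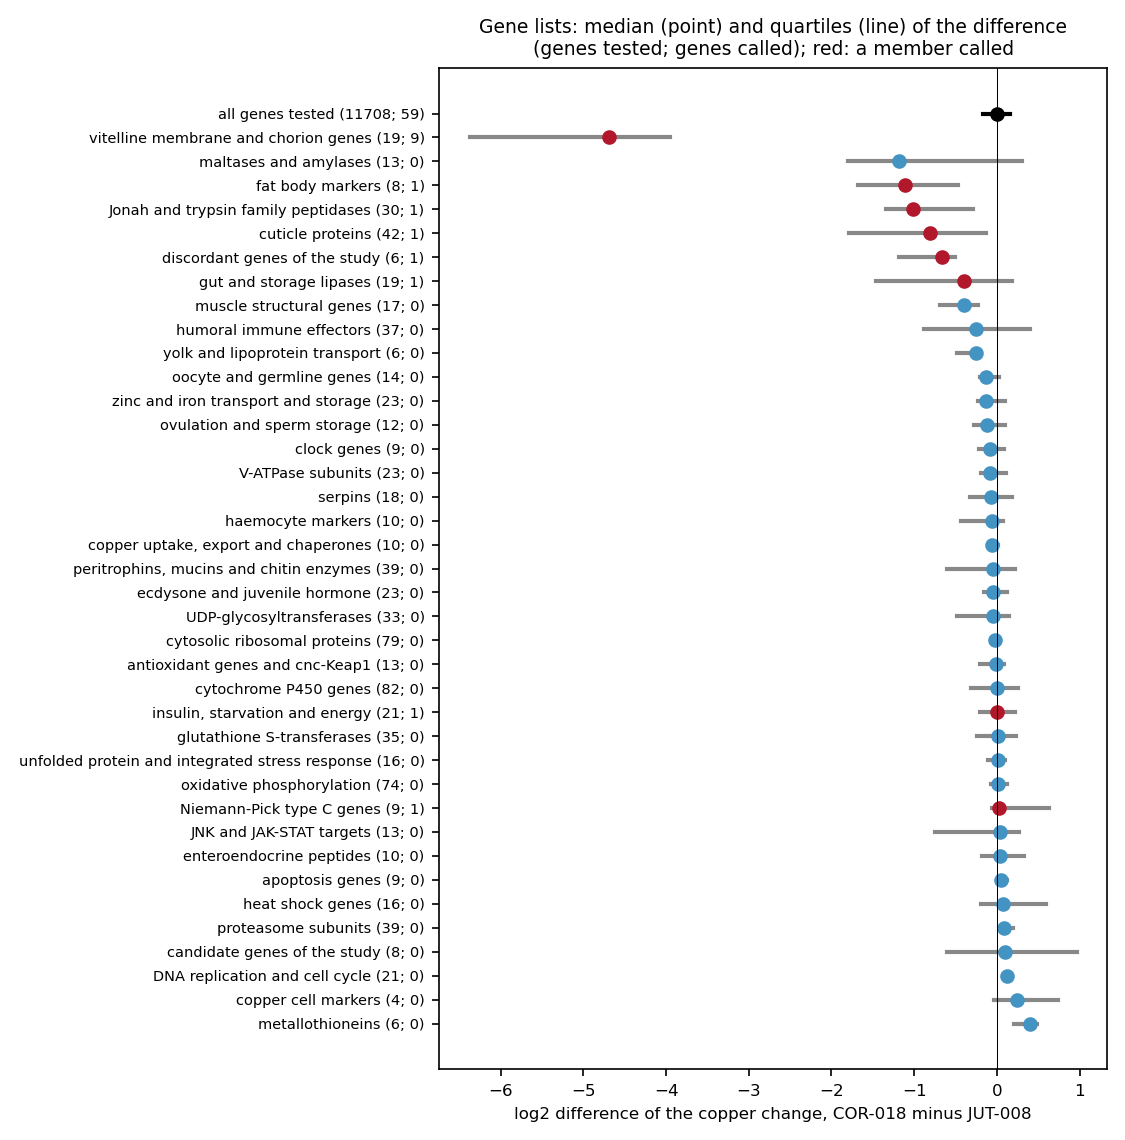
Difference of the copper change between COR-018 and JUT-008 (log2, horizontal axis) for the members of each gene list, with the median as a point and the quartiles as a line. Each name is followed by the number of genes tested and of genes called, and lists with a called member are red. The eggshell list has the lowest median, -4.69, and maltases and amylases (-1.18), fat body markers (-1.11) and *Jonah* and trypsin family peptidases (-1.01) also lie below the median of all genes at 0.00.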

How the data were processed

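Whole-female RNA-seq libraries were compared between copper and control in COR-018 and JUT-008. Counts per gene were deposited by the authors, who trimmed reads with Trim Galore 0.5.0 and cutadapt 1.18, aligned them to dm6 with STAR 2.6 and counted them with featureCounts 1.6.2, reverse-stranded, leaving out reads with more than one position or feature. No normalization had been applied to these whole numbers. The authors' annotation release may differ from the one used here for symbols and positions, which paired 16198 of the 16495 gene IDs with a symbol.

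Here the 12 libraries were grouped by labelled strain and treatment. The counts were filtered by edgeR's filterByExpr, normalized by TMM and fitted with 1 mean per group by edgeR 4.0.16 (quasi-likelihood test, R 4.3.3). The interaction was the copper change in COR-018 minus that in JUT-008. Genes with a Benjamini-Hochberg adjusted p below 0.05 over all genes tested were called, with no fold threshold. An SE is the absolute log2 estimate divided by the square root of F. The scripts were tested on simulated data. Counts per library ran from 26185356 to 42567920, and the spread between the libraries of a group also limits the precision. Intervals of read ratios cover counting error only.

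The named genes were *MtnA* to *MtnE*, the 10 largest positive and negative differences among genes called in all 12 fits that leave out 1 library with an average log2 CPM of at least 2, the 5 lowest p-values, the genes called with opposite signs, up to 4 called members of each list, and the male genes. Other genes were named after their values were seen. The comparison and its 42 gene lists were chosen with earlier results of these data known. Alternatives were DESeq2 1.42.0, other scalings and filters, a 1.5-fold threshold, a fit of all 34 libraries, a replicate block, each library left out, and, added after the data were seen, a fit without the 7 libraries with male transcripts. The study's own fits used DESeq2, with strain and treatment terms and, over all strains jointly, their interaction. Pairs of replicates differed by 12.8 to 73.8 in chi-square per degree of freedom, so none was a repeat of another. No reference sequence was used here.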

Additional observations from a re-analysis of the deposited data

Results flagged for a closer look

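The copper response differed between COR-018 and JUT-008 for 59 genes in the test of the interaction (edgeR). In 4 of these the change was called in both strains with opposite signs. *CG3106* was higher with copper in COR-018 and lower in JUT-008, with a difference of 3.44. *CG34291*, *CG16713* and a gene without a symbol were lower in COR-018 and higher in JUT-008, with differences of -2.27, -1.70 and -1.37. Transcripts of male accessory gland genes, which whole females were not meant to supply, summed to as much as 165 CPM in 1 JUT-008 control library and exceeded 1 CPM in 7 of the 12 libraries, copper and control alike.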

How the results depend on the processing

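The number of genes whose response differed (59, with 9 positive and 50 negative) was 329, 107 and 222 in DESeq2 and 175, 36 and 139 in a fit of all 34 libraries. Scaling by library size alone gave 15 positive differences. With 1 library left out at a time the counts were 16 to 86, 2 to 18 and 14 to 76, and those of opposite sign (4) were 1 to 10. They were 21 in DESeq2, 11 in the fit of all libraries and 7 with 10 counts or more in every library. The genes called in COR-018 (2570) were 1248 to 2978 with a library left out, 1201 with a 1.5-fold threshold and 500 without the 7 libraries with male transcripts. Those called in JUT-008 (947) were 484 to 1721 with a library left out, 1506 in DESeq2 and 146 without those 7 libraries. In that last fit COR-018 copper, JUT-008 copper and JUT-008 control had 1 library each, assumed to vary like the other group. The eggshell genes called (9) were 17 in DESeq2, 14 in the fit of all libraries and 4 with 10 counts or more in every library, a filter that removes genes nearly lost from COR-018 copper libraries. The *MtnD* difference of 0.14 was 0.949 without the 7 libraries with male transcripts, ran up to 0.47 with a library left out and was -0.018 without COR-018 control replicate 1 and -0.034 without JUT-008 copper replicate 2. Over all settings run, that of *MtnA* (0.42) ran from 0.262 to 0.642, of *MtnB* (1.21) from 0.762 to 1.624, of *MtnC* (-0.55) from -0.843 to -0.262 and of *MtnE* (0.39) from 0.178 to 0.715, and none of the 5 was called under any. The cause of these shifts was not tested.

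With the replicate number as a block, 21 genes differed, 0 positive and 21 negative, of which 17 were among the 59, 9 eggshell genes were called, 2 genes had opposite signs, and the genes called within a strain were 319 for COR-018 and 210 for JUT-008. Neither the labels nor the study's methods state whether equal numbers mark pairs of libraries. The deviations of same-numbered copper and control libraries correlated at -0.432 and -0.892 for the 2 shared COR-018 numbers. For the 3 of JUT-008 the correlations were 0.605, -0.593 and -0.864. With 3 libraries per group these values cannot decide whether the libraries were paired. Low counts limit the fitted values of genes nearly absent from COR-018 copper libraries, and depth was higher in every COR-018 library.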
